A study of Mus musculus with 4 samples.

Results

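The CD28 family and other coinhibitory receptors of T cells were compared between regulatory T cells with and without surface Nrp1 (neuropilin-1). The set held 10 genes: Cd28, Ctla4, Icos, Pdcd1, Btla, Tigit, Cd226, Cd96, Havcr2 and Cd200. Every probe set annotated to one of these genes alone was taken, which gave 12 of the 45101 probe sets on the array, for 9 of the 10 genes. Icos had 3 probe sets, Cd28 had 2, the other genes had 1 each, and none was listed with Tigit alone, so Tigit was not analysed here. The tested cells were CD4+ Foxp3+ Nrp1-positive cells from the spleens of Balb/c Foxp3 GFP mice aged 4 to 6 weeks (2 arrays). They were set against CD4+ Foxp3+ Nrp1-negative cells of the same strain and organ (2 arrays), from mice aged 4 to 6 weeks for replicate 2 and 4 to 8 weeks for replicate 1. Both groups carry a GFP reporter for Foxp3, the lineage transcription factor of regulatory T cells, and no agent was given to either, as far as the labels say.

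T cells need a signal from a costimulatory receptor beside that of the antigen receptor, and receptors of the same families hold the response back. CD28 gives the main costimulatory signal when it meets CD80 or CD86 on an antigen-presenting cell. CTLA-4 binds the same ligands more tightly and removes them from the presenting cell. Regulatory T cells carry CTLA-4 and CD28 constitutively and use CTLA-4 to suppress.

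The other labels of Nrp1-negative replicate 1 (source name and cell type) call it Nrp1-positive, against its title. Grouping went by title, and the RNA of the sorted marker went with the titles: the Nrp1 probe set 1448943_at had intensities of 9077 and 8040 in Nrp1-positive replicates 1 and 2, and of 339 and 1223 in Nrp1-negative replicates 1 and 2. The arrays numbered 1 and those numbered 2 had been scaled by the authors to different trimmed means, 500.003 and 150.001. The median of the spiked poly-A controls after scaling to one mean was between 1760 and 2590 on the arrays numbered 1 and between 3.72 and 5.51 on those numbered 2. Groups were therefore compared within each replicate number. The T cell genes Cd3e (7663 and 5317 in Nrp1-positive, 7815 and 5906 in Nrp1-negative) and Cd4 (2272 and 746, 2204 and 729) were present on all arrays. For Foxp3 itself the signal was dim (percentile 18.0 of mean level, at most 39.1 on any array), so the sort could not be checked with it. Xist, a noncoding RNA of the inactive X chromosome, was at 79.4 and 14682 in Nrp1-positive replicates 1 and 2 (probe set 1436936_s_at). It was at 4100 and 13902 in Nrp1-negative replicates 1 and 2, so Nrp1-positive replicate 1 stood apart. At Xist probe sets 1427262_at and 1427263_at that array had 4.75 and 9.54, against 624 and 534 on Nrp1-negative replicate 1. This gap lies within replicate 1, so comparing within replicate numbers does not remove it. The part of donor sex in the differences within replicate 1 was not tested. The labels do not state whether replicates are separate mice or sorts, so the spread behind the p-values may be technical. In the fit used below, that spread came mostly from other probe sets of similar level on these arrays, not from a probe set's own values.

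None of the receptor genes passed the test between Nrp1-positive and Nrp1-negative cells. Of the 12 probe sets, 11 for 8 genes were above the filter on dim signals (percentile 50 of mean level) and were tested with limma, with the replicate number as a block. At an adjusted p below 0.05, 0 of the 11 were called, where 0.622% of all 22519 tested probe sets were. Among those called, Nrp1-positive cells had the higher level at 82 (0.364%) and the lower level at 58 (0.258%). At an unadjusted p below 0.05 there were 2 of the 11, both of Icos, where the share over all tested probe sets was 7.72%. Without the block limma called 0 of all 22519 probe sets, with 236 (1.05%) at an unadjusted p below 0.05 and 0 of the 11 among them. The block fit without the mean-variance trend also called 0 of all, with 1496 (6.64%) at an unadjusted p below 0.05, among them 1 of the 11, Havcr2.

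All tested differences of the receptor genes were smaller than 2-fold. Differences are given on the scale of log2(normalised intensity + 18.3), Nrp1-positive minus Nrp1-negative, which understates the change of dim genes. The 11 had a median difference of −0.09 and a median absolute difference of 0.21, where all tested probe sets had a median of 0 and a median absolute difference of 0.14. The largest was −0.55, for Havcr2, and 0.839% of all tested probe sets differed by 1 or more in size. The 95% intervals of 10 of the 11 lay within 2-fold in either direction, and that of Havcr2 reached past it. The direction was the same in both replicate numbers for 9 of the 11, where it was the same in 51.9% of all tested probe sets. The exceptions were Ctla4 and Cd200. With the arrays scaled to one trimmed mean and not quantile normalised, they were Ctla4 and Btla. The 9 include the 3 probe sets of Icos and the 2 of Cd28, and probe sets of 1 gene are not independent. The groups did not overlap for 4 of the 11, against 20.2% of all. These 4 were 1 Cd28 probe set, Pdcd1, Btla and Cd96. With the scaling alone the groups of Btla overlapped. With 2 arrays a group, an exact permutation test of a single probe set that ignores the replicate number cannot give a two-sided p below 0.333. For swaps within replicate numbers only, the floor is higher still.

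**Figure D1:**
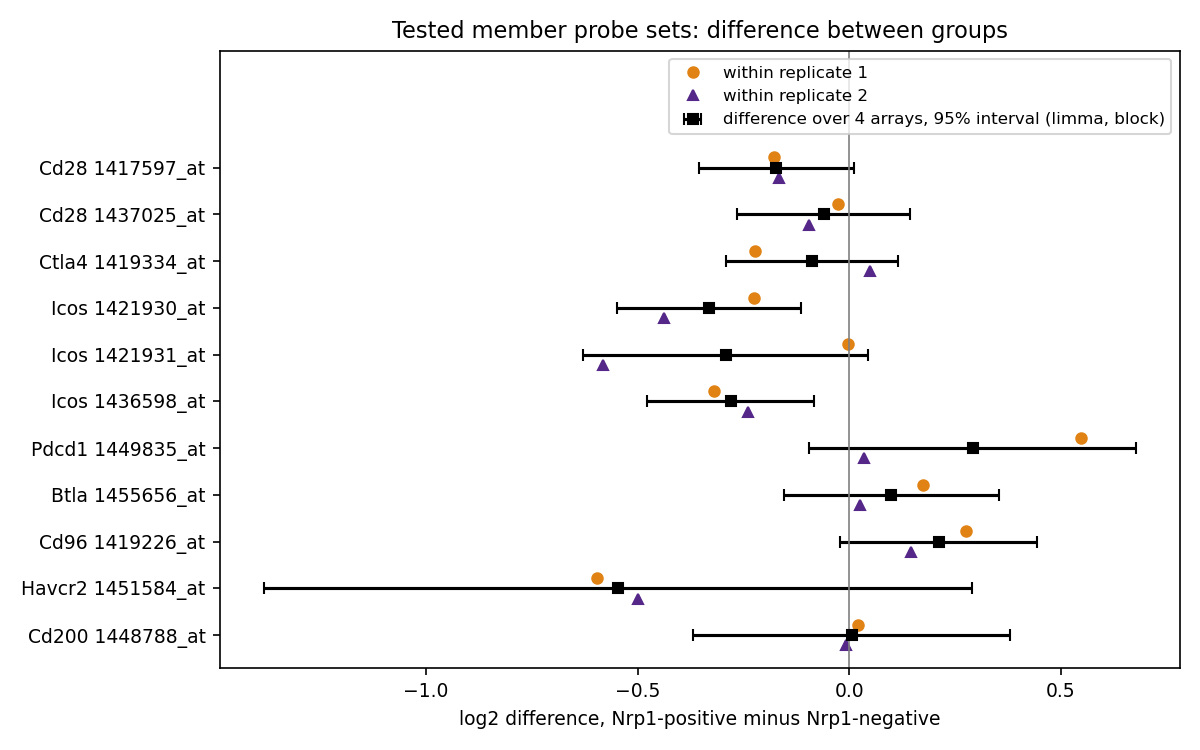
Log2 difference between Nrp1-positive and Nrp1-negative cells (horizontal axis) for the 11 tested probe sets. Squares with bars are the difference over 4 arrays and its 95% interval from limma with the block, circles are the difference within replicate 1 and triangles that within replicate 2. All 3 Icos probe sets lie at or below 0 in both replicates, and the interval of Havcr2 is the widest.

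Cd28, the costimulatory receptor itself, was read by a pair of probe sets, which lay below Nrp1-negative cells within each replicate number without passing. At probe set 1417597_at its intensity was 8189 and 8733 in Nrp1-positive replicates 1 and 2, and 9266 and 9803 in Nrp1-negative replicates 1 and 2. Both Nrp1-positive arrays were below both Nrp1-negative arrays, by −0.18 within replicate 1 and −0.17 within replicate 2. The difference was −0.17 (standard error 0.09, adjusted p = 0.702 in limma with the block), or 0.888-fold, with a 95% interval of 0.782 to 1.01-fold. The second Cd28 probe set, 1437025_at, had 5172 and 6341 in Nrp1-positive cells and 5267 and 6774 in Nrp1-negative cells. Its groups overlapped, and its difference was −0.06 (adjusted p = 0.975 in limma with the block).

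Icos, a costimulatory receptor that T cells raise on activation and that binds ICOS ligand, was the member with the lowest p-values. Probe set 1421930_at had intensities of 3885 and 5636 in Nrp1-positive replicates 1 and 2, and of 4542 and 7642 in Nrp1-negative replicates 1 and 2. Probe set 1436598_at had 5042 and 7616 in Nrp1-positive cells and 6300 and 8993 in Nrp1-negative cells. Within each replicate number the Nrp1-positive array was the lower one at both probe sets, while over all 4 arrays the groups overlapped because replicate 2 was higher than replicate 1. Probe set 1421931_at had 1108 and 1397 in Nrp1-positive cells and 1110 and 2100 in Nrp1-negative cells, so its 2 arrays of replicate 1 differed by −0.0020 and the difference came from replicate 2 (−0.58).

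The 3 Icos probe sets thus differed by −0.33, −0.28 and −0.29 in the order above, or 0.795-fold, 0.824-fold and 0.817-fold. Limma with the block gave standard errors of 0.10, 0.09 and 0.16 and adjusted p-values of 0.251, 0.325 and 0.746, so none passed. The unadjusted p-values were 0.00517, 0.00831 and 0.0847. The probe sets read the same gene and are not independent measurements. As the mean of its 3 probe sets in a limma fit with 1 value a gene, Icos differed by −0.30 (adjusted p = 0.0808). That was the lowest adjusted p of any member under the settings tried. This fit called more of everything: of 10200 genes, 211 (2.07%) were called higher and 114 (1.12%) lower, against 0.622% of probe sets in the main fit. Its unadjusted p-values were 0.00312 for Icos, 0.038 for Cd96 and 0.0493 for Pdcd1, the last pair being higher in Nrp1-positive cells. Of all tested probe sets, 17.4% differed more in size than 1421930_at. Without the trend in the variance prior its 95% interval ran from −0.77 to 0.10.

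Cd28, Ctla4 and Icos lie next to each other on the mouse genome with 0 other protein-coding genes between them in RefSeq's gene order. Ctla4, the inhibitory receptor that competes with CD28 for its ligands, had an intensity of 5655 and 9593 in Nrp1-positive replicates 1 and 2, and of 6607 and 9277 in Nrp1-negative replicates 1 and 2. The lowest and the highest of these 4 values both belonged to Nrp1-positive arrays. The mean was 7624 ± 2784 in Nrp1-positive cells and 7942 ± 1888 in Nrp1-negative cells (SD, n = 2 each). The difference was −0.22 within replicate 1 and 0.05 within replicate 2, and −0.09 over both (standard error 0.10, adjusted p = 0.947 in limma with the block). Its 95% interval ran from 0.817 to 1.08-fold, and from −0.54 to 0.36 on the log2 scale without the trend in the variance prior.

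**Figure D2:**
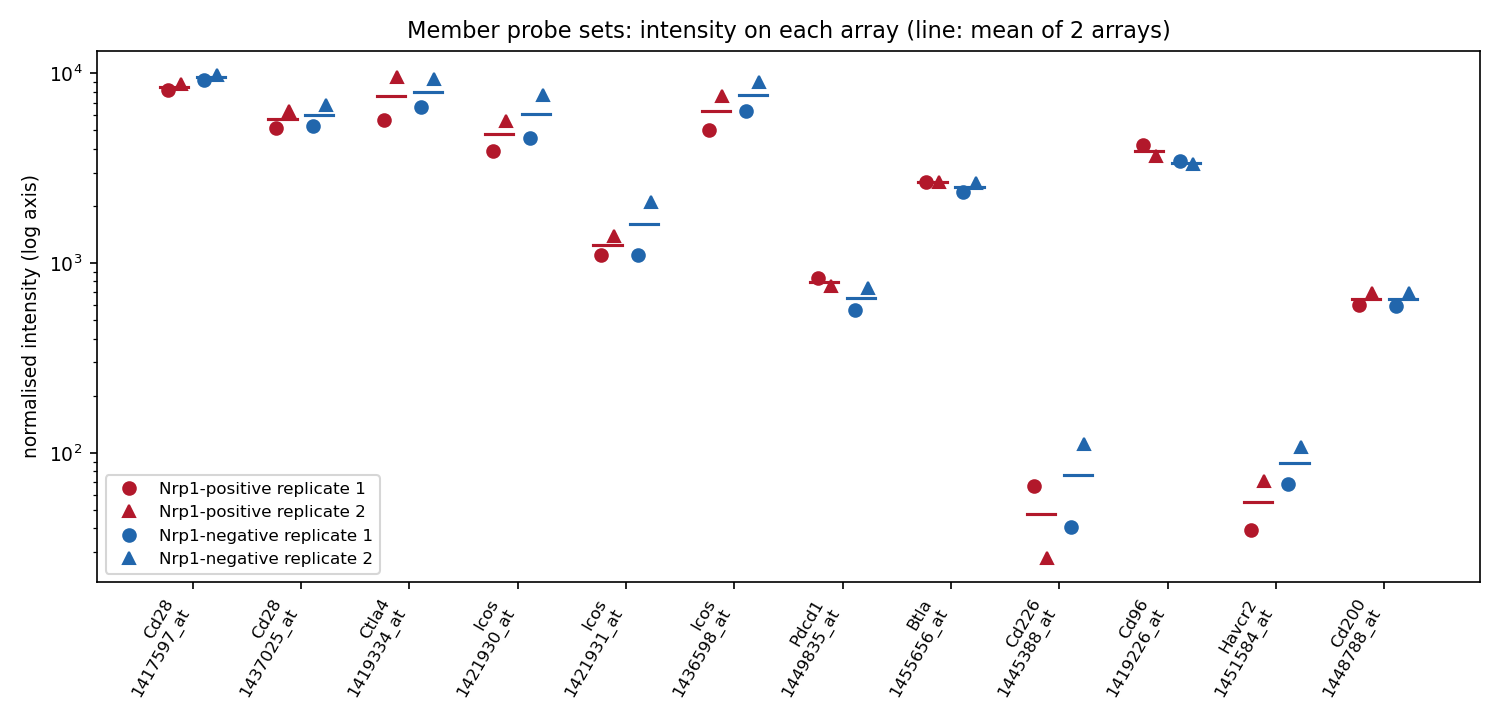
Normalised intensity on each array (vertical log axis) for the 12 probe sets, with Nrp1-positive arrays in red left of Nrp1-negative arrays in blue. Circles are replicate 1, triangles are replicate 2 and lines are means of 2 arrays. For Ctla4 and Icos the triangles lie above the circles of their group, and Cd226 and Havcr2 stay near or below an intensity of 112. Levels of different probe sets cannot be set against each other.

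Pdcd1 encodes PD-1, an inhibitory receptor that is raised by antigen receptor signalling and binds PD-L1 and PD-L2. Its intensity was 837 and 757 in Nrp1-positive replicates 1 and 2, and 567 and 738 in Nrp1-negative replicates 1 and 2. Both Nrp1-positive arrays were above both Nrp1-negative arrays, but by 0.55 within replicate 1 and by 0.04 within replicate 2. Nrp1-negative replicate 1, the array whose labels conflict, held the lowest value. Nrp1-positive replicate 1, the array whose Xist level stood apart, held the highest. The part of either in the Pdcd1 difference was not tested. The difference over both replicates was 0.29 (standard error 0.18, adjusted p = 0.809 in limma with the block), with a 95% interval of 0.936 to 1.60-fold.

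Btla, an inhibitory receptor whose ligand is the TNF receptor family protein HVEM, had 2676 and 2689 in Nrp1-positive cells, against 2370 and 2642 in Nrp1-negative cells. The Nrp1-positive values were the higher pair, by 0.17 within replicate 1 and 0.02 within replicate 2. That order depended on the quantile normalisation. With scaling to one trimmed mean alone Btla had 2649 and 2685 in Nrp1-positive cells, against 2355 and 2690 in Nrp1-negative cells. The difference was 0.10 (standard error 0.12, adjusted p = 0.960 in limma with the block), with a 95% interval of 0.898 to 1.28-fold.

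TIGIT, CD226 and CD96 form a group that shares the ligand CD155, with CD226 as the activating member and TIGIT as an inhibitory one. Cd96 had an intensity of 4172 and 3664 in Nrp1-positive replicates 1 and 2, and of 3442 and 3308 in Nrp1-negative replicates 1 and 2. The Nrp1-positive arrays were the higher ones in both replicate numbers, by 0.28 and 0.15. The difference of 0.21 did not pass (standard error 0.11, adjusted p = 0.725 in limma with the block), and its 95% interval was 0.985 to 1.36-fold.

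Cd226 lay at percentile 47.4 of mean level, just under the filter, and was not tested. It had 67.1 and 28.0 in Nrp1-positive replicates 1 and 2, and 40.8 and 112 in Nrp1-negative replicates 1 and 2. The Nrp1-positive array was the higher one in replicate 1 and the lower one in replicate 2, with differences of 0.53 and −1.49. With no filter its adjusted p was 0.969 in limma with the block.

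Havcr2, the gene of the inhibitory receptor TIM-3, was just inside the filter at percentile 50.1. Its intensity was 39.3 and 71.2 in Nrp1-positive replicates 1 and 2, and 68.7 and 108 in Nrp1-negative replicates 1 and 2. The Nrp1-positive array was the lower one in both replicate numbers, by −0.60 and −0.50, although the groups overlapped. The difference was −0.55 (standard error 0.39, adjusted p = 0.861 in limma with the block), and its 95% interval of 0.383 to 1.22-fold was the widest of the 11. Without the trend in the variance prior, which assigns dim probe sets a larger spread, the interval ran from −0.96 to −0.13, with an unadjusted p of 0.0215 and an adjusted p of 0.726. Among all tested probe sets, 6.12% differed more in size.

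Cd200, a membrane glycoprotein that acts as a ligand for the inhibitory CD200 receptor, was the member closest to 0. It had 601 and 694 in Nrp1-positive replicates 1 and 2, and 592 and 698 in Nrp1-negative replicates 1 and 2. The pairs of one replicate number were nearly equal, with differences of 0.02 and −0.0086. With scaling to one trimmed mean alone the Nrp1-positive array was slightly higher in both replicate numbers (599 against 591, 706 against 692). The difference of 0.0056 had a 95% interval of 0.775 to 1.30-fold (adjusted p = 0.999 in limma with the block). Cd200 neighbours Btla with 0 other protein-coding genes between them.

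The level of several receptors differed more between the replicate numbers than between the groups. In replicate 2 the mean log2 level over both groups was higher than in replicate 1 by 0.62 for Ctla4, by 0.55 to 0.64 for the 3 Icos probe sets and by 0.59 for Havcr2. These 5 of 11 probe sets, of which 3 read the same gene, exceeded 0.5, as did 14.8% of all tested probe sets. Ctla4 was 1.70-fold higher in replicate 2 among Nrp1-positive arrays and 1.40-fold among Nrp1-negative arrays. The Cd28 probe sets differed from each other here, with shifts of 0.09 at 1417597_at and 0.33 at 1437025_at. Btla and Cd96 shifted by 0.08 and −0.12. With 1 array of each group per replicate number, these shifts come from 2 arrays against 2 and were given no test.

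Signs of RNA quality and markers of myeloid cells moved with the replicate number too. The ratio of the 3′ to the 5′ Gapdh probe set was 1.54 and 0.711 in Nrp1-positive replicates 1 and 2, and 1.74 and 0.763 in Nrp1-negative replicates 1 and 2. That of Actb was 1.59 and 1.18 in Nrp1-positive cells and 1.76 and 1.26 in Nrp1-negative cells, so both ratios were lower in replicate 2 of each group. TIM-3 is also found on myeloid cells. The summed level of 11 markers of myeloid and conventional dendritic cells was 9468 and 35365 in Nrp1-positive replicates 1 and 2, and 7843 and 37670 in Nrp1-negative replicates 1 and 2. Most of it came from S100a8 (6913 and 23809 in Nrp1-positive, 6008 and 25057 in Nrp1-negative) and Lyz2 (1611 and 8834, 1098 and 9174). Of the 9 that were tested, 0 were called, and 8 had opposite directions in the replicate numbers. The part of RNA quality and of these cells in the Havcr2, Ctla4 and Icos levels was not tested. In such bulk samples fewer cells of a type and less RNA per cell cannot be told apart.

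**Figure D3:**
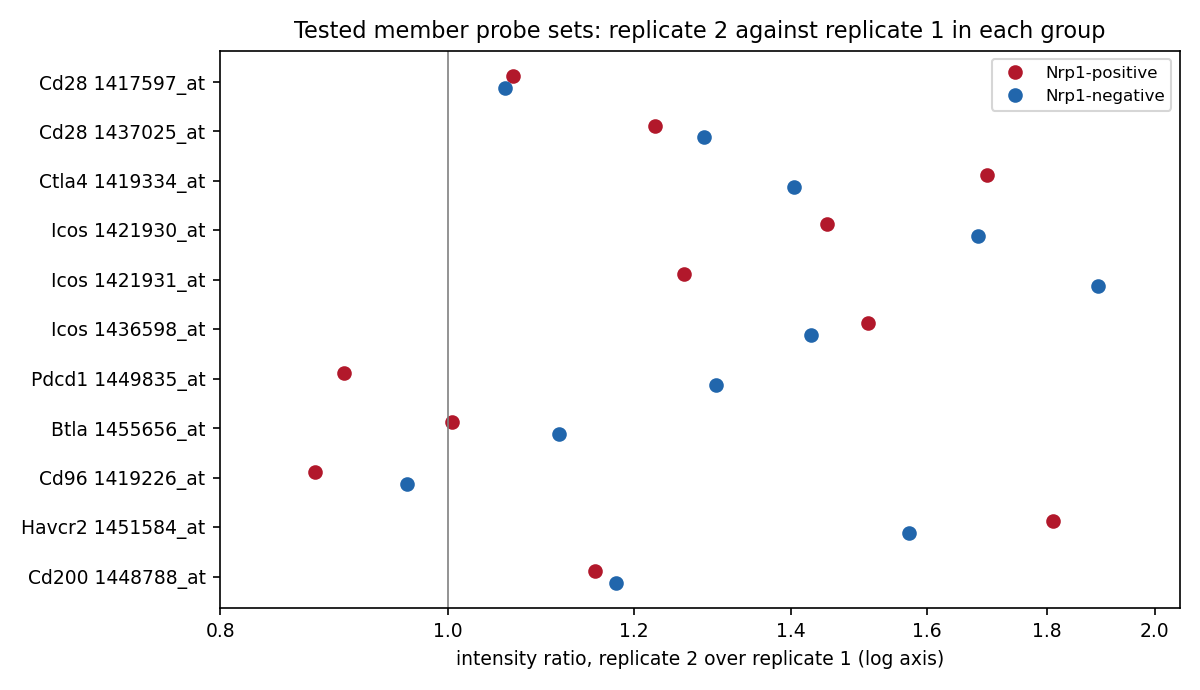
Ratio of the intensity on the array of replicate 2 to that of replicate 1 (horizontal log axis) in Nrp1-positive cells (red) and Nrp1-negative cells (blue), for the 11 tested probe sets. Ctla4, the 3 Icos probe sets and Havcr2 have ratios of 1.26 to 1.89 in both groups, and Cd96 is below 1 in both.

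None of the tested markers of other cell types that carry these receptors was called. BTLA and CD200 are also found on B cells, and of 9 B cell markers on the array 7 were below the filter, with at most 96.0 on any array. The other two, Cd79b (0.48, adjusted p = 0.678 in limma with the block) and Cd22 (0.16, adjusted p = 0.981), did not pass, and the summed B cell level was 663 and 755 in Nrp1-positive cells and 505 and 765 in Nrp1-negative cells. CD96, CD226 and TIGIT are also found on CD8 T cells and natural killer cells, whose 9 markers summed to 1617 and 2257 in Nrp1-positive cells and 1591 and 3168 in Nrp1-negative cells. None of the 6 tested was called, with the largest differences for Ncr1 (−0.59, adjusted p = 0.794) and Gzma (−0.48, adjusted p = 0.548). Of plasmacytoid dendritic cell markers 0 of 4 were called, with Cox6a2 at −0.40 and Klk1 at 0.38. Their 6 markers on the array summed to 3008 and 3112 in Nrp1-positive cells and 3102 and 3857 in Nrp1-negative cells. The largest part was Ccr9 (1498 and 2554 in Nrp1-positive, 1548 and 3274 in Nrp1-negative). Bst2 was lower in replicate 2 of each group (1004 and 194, 1107 and 179), so the sum does not show how single markers moved. The 1 endothelial marker tested, Pecam1, differed by 0.06. The 7 endothelial and stromal markers summed to 862 and 994 in Nrp1-positive cells and 981 and 780 in Nrp1-negative cells. Most of that sum was Pecam1 (679 and 815 in Nrp1-positive, 807 and 628 in Nrp1-negative). Of 7 T cell identity genes 0 were called, with Cd5 at 0.30 and Thy1 at −0.29. Of 8 tested regulatory T cell markers 5 were called higher in Nrp1-positive cells. Nrp1 (3.68) is the marker the cells were sorted on, so its call was fixed by the sort. The remaining called markers were Ikzf4 (1.13), Ikzf2 (0.85), Tnfrsf4 (0.60) and Tnfrsf18 (0.47). Their adjusted p-values in the block fit of limma ran from 5.23e-05 to 0.0186. By comparison, 0.364% of all tested probe sets were called higher. Without the block 0 of the 5 markers passed.

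The ligands of the receptors, listed together with Cd200r1, the receptor that CD200 binds, were also measured in the sorted cells. Of 14 genes on the list 10 were tested and 0 were called, with a median difference of 0.15, at 0.10 within replicate 1 and −0.02 within replicate 2. The median over all tested probe sets was 0. The largest differences were those of both genes named by the rule. Cd80, a shared ligand of CD28 and CTLA-4, had 171 and 322 in Nrp1-positive replicates 1 and 2, and 61.0 and 174 in Nrp1-negative replicates 1 and 2. The Nrp1-positive array was the higher one in each replicate number, by 1.26 and 0.82, and the difference of 1.04 did not pass (unadjusted p = 0.00263, adjusted p = 0.180 in limma with the block). Pdcd1lg2, which encodes PD-L2, a ligand of PD-1, had 518 and 633 in Nrp1-positive cells, against 264 and 469 in Nrp1-negative cells. Its groups did not overlap, and its difference of 0.67 did not pass either (unadjusted p = 0.00513, adjusted p = 0.251 in limma with the block). Cd274, the gene of the other PD-1 ligand, PD-L1, differed by 0.29 and Lgals9, the gene of galectin-9, by 0.01.

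Among inhibitory receptors outside the set, Lag3 and Klrg1 were the called genes of 8 tested, where 0.622% of all tested probe sets were called. This list was chosen with earlier results of these data known. Lag3, a CD4-related receptor for MHC class II, had 317 and 255 in Nrp1-positive replicates 1 and 2, and 1197 and 882 in Nrp1-negative replicates 1 and 2. It differed by −1.79 (standard error 0.19, adjusted p = 0.000107 in limma with the block), or 0.290-fold, and every Nrp1-positive array was below every Nrp1-negative array. Klrg1, a lectin-like receptor for cadherins, had 2470 and 3503 in Nrp1-positive cells, against 1200 and 2497 in Nrp1-negative cells, a difference of 0.76 (adjusted p = 0.0195 in limma with the block). Its groups overlapped. Without the block neither passed. The other 6, among them Cd160, Vsir and Cd6, ranged from −0.34 to 0.30, and the median of the list was −0.0077.

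In the lists of genes behind the receptors, Id3 and Maf were called, both of them among the transcription factors. Of 18 tested genes of proximal signalling 0 were called, with 9 differences above and 9 below 0 and a median of 0.04. The largest were those of Themis (−0.55, adjusted p = 0.244 in limma with the block), a regulator of antigen receptor signalling, and Grap2 (−0.52, adjusted p = 0.532), an adaptor that CD28 recruits. Of 10 genes of CTLA-4 trafficking, among them Lrba, which protects CTLA-4 from lysosomal degradation, 0 were called, and differences ran from −0.28 for Pld2 to 0.21 for Rab8a. Of 21 transcription factors and RNA-binding regulators of these receptor genes 1 was called higher and 1 lower in Nrp1-positive cells. Over all tested probe sets 0.364% were called higher and 0.258% lower. The list was chosen with earlier results of these data known, so its count is a description only. Id3 had 3418 and 3285 in Nrp1-positive cells, against 2142 and 2110 in Nrp1-negative cells, a difference of 0.65 (adjusted p = 0.0160 in limma with the block). Maf had 4876 and 7748 in Nrp1-positive cells, against 6992 and 11330 in Nrp1-negative cells, a difference of −0.53 (adjusted p = 0.0104 in limma with the block). Neither passed without the block. The largest difference of the list was that of Nr4a2, a nuclear receptor induced by antigen receptor signalling, which did not pass. It had 258 and 185 in Nrp1-positive cells, against 176 and 84.3 in Nrp1-negative cells, so its groups did not overlap, and it differed by 0.75 (unadjusted p = 0.0199, adjusted p = 0.462 in limma with the block). Its other tested probe sets differed by −0.35, 0.48 and 0.53. None of the other 18, among them Nfatc1 (−0.13), Tox (−0.03), Batf (0.28) and Prdm1 (−0.28), passed, and the median of the list was 0.0050.

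**Figure D4:**
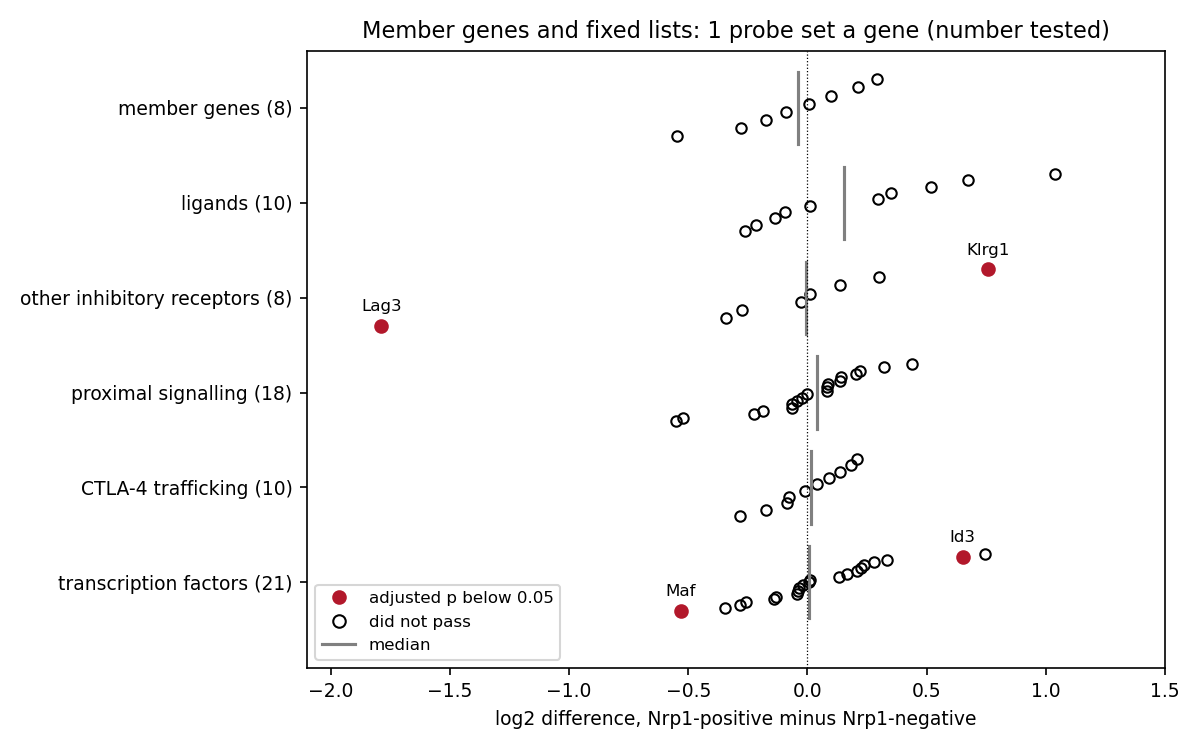
Log2 difference between Nrp1-positive and Nrp1-negative cells (horizontal axis) for 1 probe set a gene, in the 8 tested member genes and 5 gene lists. Filled circles passed the adjusted p of 0.05 in limma with the block, open circles did not and grey lines are medians. Lag3, Klrg1, Maf and Id3 are the filled circles, and none is a member of the receptor set.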

How the data were processed

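Trizol-extracted RNA of sorted spleen cells had been biotin-labelled and hybridised to 1-colour Affymetrix arrays, per the labels' protocols. The authors deposited linear intensities, 1 per probe set and array, and the submitters' processing notes name MAS5 with no version or settings. The number of arrays, 4, limits the precision.

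Arrays were brought to one trimmed mean (2% trimmed at each end), quantile normalised and analysed as log2(intensity + 18.3), the pseudocount being 0.25 of the mean array median. After 64 control probe sets were left out, the upper 50% by mean level were kept (22519). Gene names came from the platform annotation: 34945 probe sets had 1 gene, 932 several and 9160 none here. Of the symbols, 0 changed through RefSeq's gene table, whose assembly also gave the gene order. The comparison used limma 3.58.1 (R 4.3.3; two-sided, empirical Bayes with mean-variance trend, Benjamini-Hochberg over all tested probe sets), with the replicate number as a block, since arrays of one number share the authors' scaling target. Deviations from the group means correlated at 0.692 between arrays of one number, over probe sets. In this fit 1 residual degree of freedom joins 14.9 from the prior, so standard errors rest mostly on other probe sets of similar level. The procedure was run on simulated data with normal noise, a spread set by level and an additive replicate effect. These are what the fit assumes, so the run cannot show that they hold for these arrays. Members and gene lists were chosen with earlier results of these data known, and no set test was run. Lists use 1 probe set a gene, the brightest that passed. Named were all member probe sets, called genes of each list or, with none called, the 2 with the largest difference, and genes named to check the sort. Other list genes named (such as Cd274, Nfatc1, Nr4a2 and Lrba) were chosen after their values were seen. Drawings were made with matplotlib 3.10.9.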

Additional observations from a re-analysis of the deposited data

How the results depend on the processing

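No receptor gene passed under any of the 14 alternatives with a test. Some of these called 0 of all 22519 probe sets: no replicate block, no trend, and Nrp1-negative replicate 1 counted as Nrp1-positive. The fits that left out an array without the block called at most 3. That no member passed under any of these settings says little about the members. Of 140 values of member probe sets under these alternatives, 11 turned sign. The fit on probe sets averaged per gene has no probe set values and is not in this count. When the group of Nrp1-negative replicate 1 was turned to Nrp1-positive, the difference rested on replicate 2, and Ctla4 was 0.0482 and Cd200 −0.0086. The other 9 came from leaving out an array without the block, which mixes the replicate number with the group. Without Nrp1-negative replicate 2, Ctla4 was 0.1565, Cd28 at 1437025_at 0.1203 and Icos 0.0430 at 1421930_at and 0.1628 at 1421931_at. Without Nrp1-positive replicate 1, Ctla4 was 0.2925, Cd28 at 1437025_at 0.0858 and Icos at 1436598_at 0.0169. For Cd200 it was −0.1102 if Nrp1-negative replicate 1 was left out and −0.0960 if Nrp1-positive replicate 2 was. With the block kept, leaving out an array only returns the difference of the other replicate number, with no test. Of these 44 values 4 turned sign, those of Ctla4 (0.0482 in replicate 2, −0.2237 in replicate 1) and Cd200 (−0.0086 and 0.0197), each returned by leaving out either array of replicate 1. With other pseudocounts Havcr2, the dimmest tested, was −0.69 (pseudocount 1) and −0.33 (the whole array median). Over all probe sets, calls (82 higher, 58 lower) depended on the setting. They were 28 and 18 with scaling alone, 44 and 31 with no filter, 206 and 145 with a filter at percentile 25, and 211 and 114 with probe sets averaged per gene. They were 0 and 0 with no replicate block, without the trend, and with the array relabelled as positive. Leaving out an array without the block gave 0 to 3 higher and 0 lower. The cause was not tested. Limma's unadjusted p was below 0.05 for 236 probe sets without the block.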
